A study of Mus musculus with 16 samples.

Results

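Mitochondrial carriers of the Slc25 family were examined in brown adipose tissue (BAT) of mice that lack the inner membrane fusion protein OPA1 in thermogenic adipocytes. The family was taken as every protein-coding gene of the GENCODE M21 annotation with a symbol made of Slc25a and a number, which gave 47 of the 51060 genes in the data, and 46 are described here. Estimated counts and TPM of all transcripts of a gene were summed. Of these 46 members, 40 passed a filter on low counts and were tested among 15632 genes.

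The data come from RNA of the interscapular BAT of 16 C57Bl/6J mice at 7 weeks of age, with 4 females and 4 males of each genotype. All mice were homozygous for an *Opa1* allele flanked by loxP sites. OPA1 BKO mice also carried a Cre transgene driven by the *Ucp1* promoter, and WT mice were littermates without Cre. Cre was therefore limited to cells in which the *Ucp1* promoter is active, whereas the RNA came from the whole tissue, so that fewer cells of a type and less RNA per cell cannot be told apart. *Opa1* had 184 ± 18.3 CPM (normalised counts scaled to a common library total, SD, n = 8) in WT mice against 26.1 ± 7.32 CPM in OPA1 BKO mice, without overlap.

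Most carriers of this family sit in the mitochondrial inner membrane and exchange nucleotides, phosphate, carboxylates, amino acids, cofactors and iron between the cytosol and the matrix. Exceptions are *Slc25a46*, classed here under the outer membrane, and the peroxisomal *Slc25a17*. Carriers of the inner membrane are made in the cytosol and inserted into the membrane by the TIM22 complex. Brown fat is known for one relative, uncoupling protein 1, which belongs to the same family under another symbol and lets protons leak back into the matrix to make heat.

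Libraries held 13607283 to 23114534 estimated counts. Transcripts of the mitochondrial genome took 23.3% to 30.5% of the counts in WT against 4.44% to 9.02% in OPA1 BKO mice, which shifts the scale of every other gene. CPM and log2 fold changes were therefore scaled by TMM, a method that assumes most genes do not change. With library size alone, the median of all genes moved by 0.57 on the log2 scale, and with limma on log2(TPM + 0.5) it moved by 0.81. Of the 9 members called lower with TMM, 4 then had a log2 fold change above 0 with library size alone and 9 with limma, and neither setting called any member lower. Each of the 15 members called with TMM stayed on its side of that moved median under every alternative. Directions below are relative to the bulk of genes.

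Among the 40 members tested, 6 were higher and 9 lower in OPA1 BKO mice at an adjusted p under 0.05 (quasi-likelihood test of edgeR, adjusted over all genes, sex as a term). That is 15% higher, where the background over all genes was 20.8%, and 22.5% lower, where it was 20.2%. The median log2 fold change of the members was 0.05, and that of all genes was 0.01. The median size of the change, without its sign, was 0.23 in the family and 0.28 over all genes. Both shares lay near the background, so the family did not move as a block, and the values of single carriers follow.

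**Figure D1:**
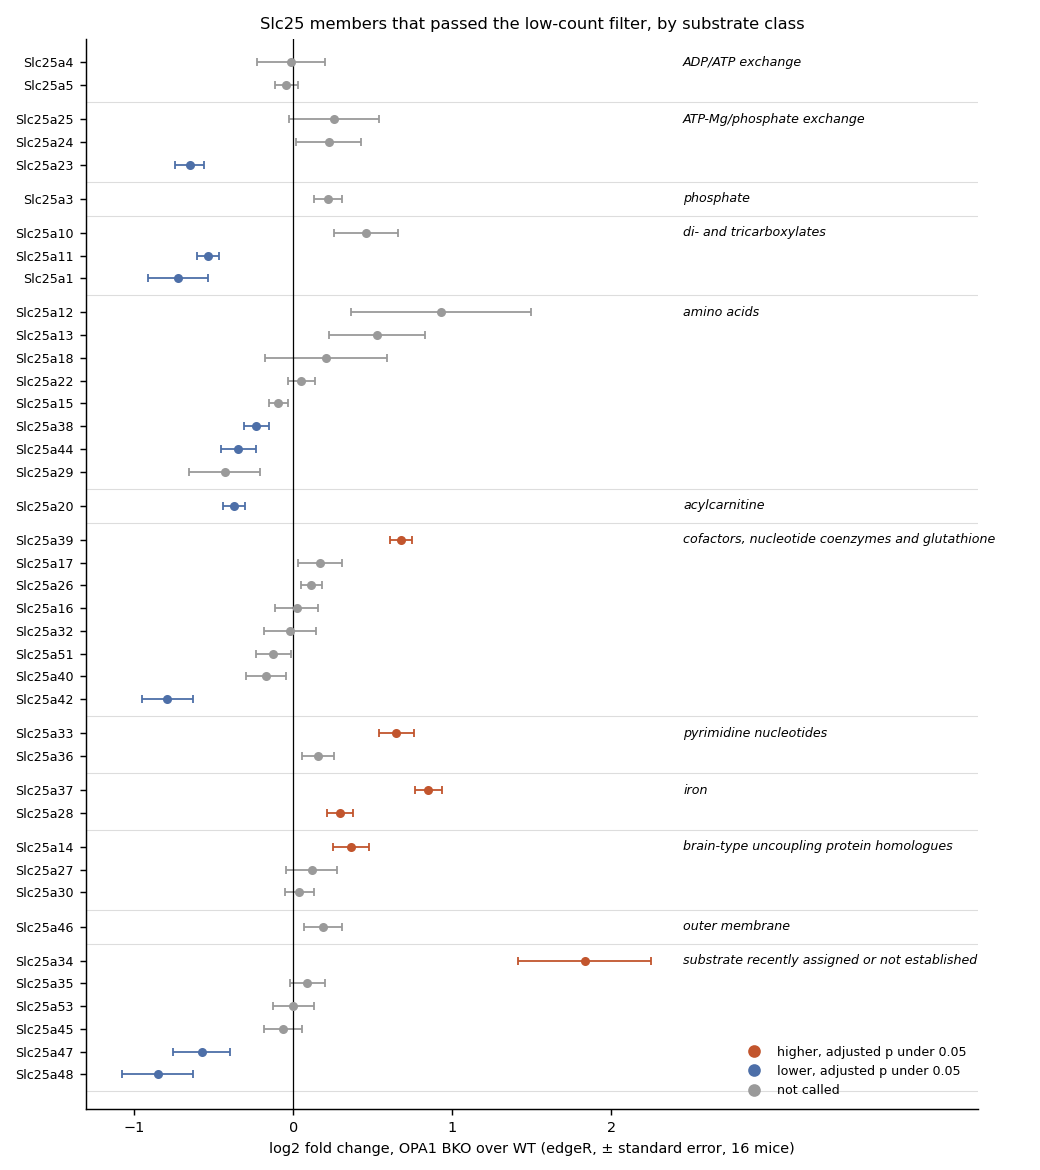
The log2 fold change of OPA1 BKO over WT mice (x axis) is plotted for each of the 40 members that passed the filter on low counts. Rows are grouped by substrate class, and bars are a standard error derived from the F statistic of edgeR's fit over 16 mice. Orange points are the 6 higher members, blue points the 9 lower members and grey points the 25 that were not called, and both carriers of the iron class are orange.

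The 6 members that were not tested had few counts. *Slc25a31*, an ADP/ATP carrier of testis, had at most 8 counts in any mouse, *Slc25a41* at most 2, *Slc25a2* at most 9, *Slc25a21* at most 5 and *Slc25a43* at most 7.12. *Slc25a54* had 0 counts in all 16 mice, which in each mouse allows up to 3 counts of the totals above.

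On the length-scaled TPM, which permits levels of different genes to be compared within a mouse, a few carriers held most of the family. The 5 most abundant members reported in WT mice were *Slc25a1* (393 ± 114 TPM), *Slc25a5* (337 ± 29.5 TPM), *Slc25a3* (277 ± 27.7 TPM), *Slc25a20* (243 ± 16.5 TPM) and *Slc25a4* (201 ± 40.8 TPM). *Slc25a1* carries citrate, *Slc25a5* and *Slc25a4* exchange ADP for ATP, *Slc25a3* carries phosphate and *Slc25a20* exchanges carnitine for acylcarnitine. These 5 members, chosen by their level in WT mice, held 60.4% ± 3.99 of the TPM of the 46 members in WT. The same 5 held 55.4% ± 2.10 in OPA1 BKO mice, where *Slc25a20* ranked 6. The share of the members most abundant in OPA1 BKO mice was not computed.

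The order of the levels differed between genotypes. *Slc25a39*, a glutathione carrier, ranked 6 in WT against 1 in OPA1 BKO mice, where it did not differ from *Slc25a3* and *Slc25a5* beyond the spread (649 ± 142, 638 ± 92.0 and 638 ± 89.9 TPM). Its share of the family TPM was 6.79% to 10.8% in WT against 11.2% to 17.1% in OPA1 BKO mice. This share does not depend on the scale between mice, and the groups did not overlap. The TPM of *Slc25a39* includes *Slc25a39*-204, a short transcript without an annotated 3′ end, with a mean of 4.1 TPM in WT against 111 TPM in OPA1 BKO mice. The rank, the share and the ratio to *Slc25a40* below were not computed without it. *Slc25a3* (10.6% to 12.5% in WT, 12.8% to 16.4% in OPA1 BKO) and *Slc25a37* (0.101% to 0.165% in WT, 0.206% to 0.269% in OPA1 BKO) also had higher shares without overlap. The share of *Slc25a23* (1.82% to 2.72% in WT, 1.23% to 1.78% in OPA1 BKO) was lower without overlap. These shares were not tested, and those of the other 42 members overlapped or were 0. How often shares within other gene sets lie apart was not computed, so this count is not read as a result about carriers. In CPM, *Slc25a3* and *Slc25a39* overlapped between genotypes.

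The direction of the summed level depended on the scale. The summed TPM of the 46 members was 2400 ± 174 in WT and 4516 ± 393 in OPA1 BKO mice, a ratio of 1.88 (two-sided exact permutation p = 0.000155, which is the lowest possible with 8 mice a side). With TPM rescaled without the mitochondrial genome the ratio was 1.34 (exact permutation p = 0.000311). On TMM-normalised CPM it was 0.93 (exact permutation p = 0.0235), and the sums were 4843 ± 290 and 4526 ± 210 CPM. No direction is therefore given for the family as a whole.

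Both mitoferrins, which bring iron into the matrix for heme and iron-sulfur clusters, were called higher in OPA1 BKO mice, where 20.8% of all genes were. *Slc25a37* (mitoferrin-1, GRCm38 chromosome 14 from 69241848 to 69285112, minus strand) had 14.4, 16.3 and 20.4 CPM in the lowest, median and highest WT mouse against 25.7, 29.4 and 35.3 CPM in OPA1 BKO mice. The lowest OPA1 BKO mouse exceeded the highest WT mouse. Its log2 fold change was 0.85 (SE 0.09, adjusted p = 1.48e-06 by edgeR), and it was the only 1 of the 40 members without overlap in the higher direction, 2.5%, where the background was 5.07%. *Slc25a28* (mitoferrin-2) had 24.5, 31.8 and 37.5 CPM in WT against 29.1, 40.1 and 48.2 CPM in OPA1 BKO mice. These groups overlapped, with a log2 fold change of 0.30 (SE 0.08, adjusted p = 0.00782 by edgeR). *Slc25a28* was not called within females (log2 fold change 0.13, adjusted p = 0.395 by edgeR). Within males its log2 fold change was 0.46 (adjusted p = 0.00274 by edgeR). The interaction of genotype and sex for *Slc25a28* had an unadjusted p of 0.0392 and an adjusted p of 0.351 by edgeR. Mitoferrin-1 is the form of developing red cells, and the 7 erythroid markers found summed to 502 to 1579 CPM in WT against 460 to 757 CPM in OPA1 BKO mice. By edgeR 0 of the 5 tested were called, while 4 were lower by DESeq2 and 4 at an unadjusted p under 0.05. Within males, edgeR called all 5 lower, and within females 0.

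**Figure D2:**
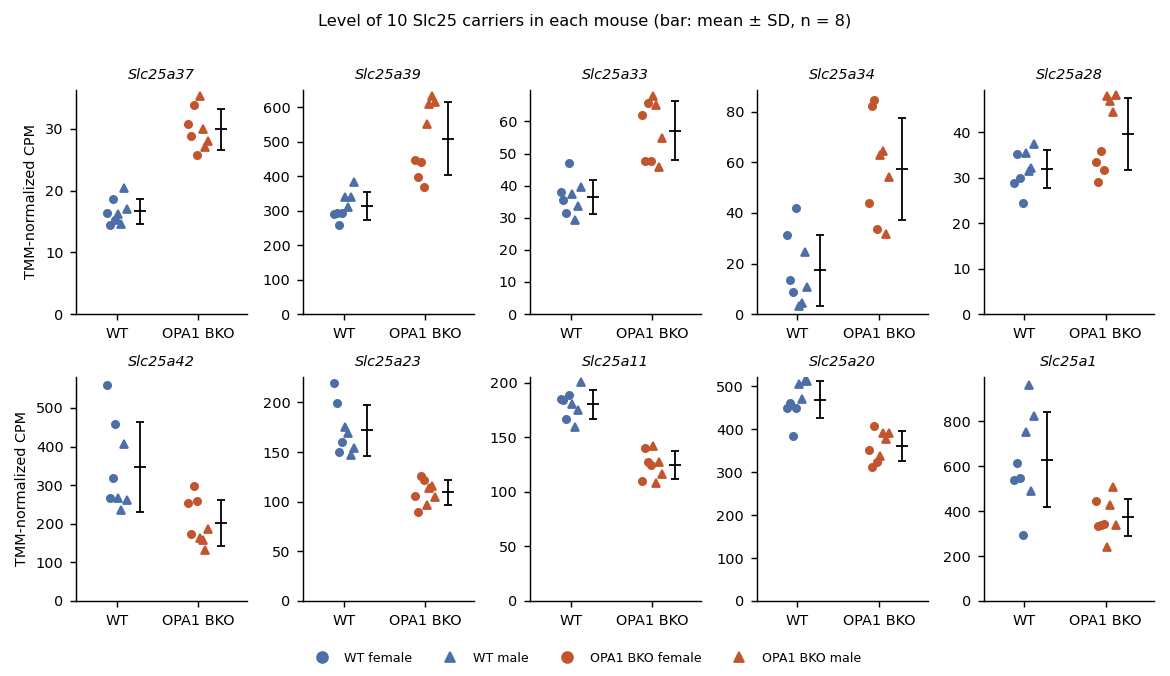
TMM-normalised CPM (y axis, from 0) of 10 carriers is plotted for each mouse, with circles for females, triangles for males, blue for WT and orange for OPA1 BKO, and a bar for the mean ± SD (n = 8). The genotypes are fully apart in *Slc25a37*, *Slc25a23* and *Slc25a11*, and overlap in the other 7.

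Among the carriers of cofactors, nucleotide coenzymes and glutathione, 1 of the 8 reported rose, 1 fell and 6 were not called. Each direction thus held 12.5%, below the background of 20.8% and 20.2%. *Slc25a39* (chromosome 11 from 102402985 to 102407946, minus strand), which brings glutathione into mitochondria, had 258, 302 and 384 CPM in the lowest, median and highest WT mouse against 369, 499 and 632 CPM in OPA1 BKO mice. The groups overlapped only at the highest WT mouse, and the log2 fold change was 0.68 (SE 0.07, adjusted p = 2.30e-06 by edgeR). Its paralog *Slc25a40* had 7.21 ± 1.21 and 6.38 ± 1.17 CPM and was not called (log2 fold change -0.17, adjusted p = 0.293 by edgeR).

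*Slc25a42*, a carrier of coenzyme A, had 235, 294 and 560 CPM in WT against 132, 180 and 297 CPM in OPA1 BKO mice. The groups overlapped, with a log2 fold change of -0.79 (SE 0.16, adjusted p = 0.000939 by edgeR). *Slc25a16*, which is linked to coenzyme A transport as well, had 30.7 to 70.3 CPM in WT against 25.7 to 54.1 CPM in OPA1 BKO mice and was not called. The NAD carrier *Slc25a51*, the folate carrier *Slc25a32*, the S-adenosylmethionine carrier *Slc25a26* and the peroxisomal *Slc25a17* had log2 fold changes between -0.12 and 0.17 and were not called.

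Of the 3 di- and tricarboxylate carriers tested, 2 fell, where 20.2% of all genes did. *Slc25a11*, the oxoglutarate carrier of the malate-aspartate shuttle, had 160, 182 and 201 CPM in WT against 108, 126 and 142 CPM in OPA1 BKO mice without overlap (log2 fold change -0.53, SE 0.07, adjusted p = 1.94e-05 by edgeR). It overlaps *Rnf167* on the other strand, and whether counting used the strand is not stated. Of the other called members, *Slc25a23* (*Crb3*, *Gm17168*), *Slc25a33* (*Gm13068*) and *Slc25a37* (*Gm27222*, *Gm27223*, *Gm31748*) also overlap genes on the other strand. *Slc25a1*, the citrate carrier that feeds fatty acid synthesis, varied more, with 294, 583 and 964 CPM in WT against 238, 342 and 510 CPM in OPA1 BKO mice. The groups overlapped, and the log2 fold change was -0.72 (SE 0.19, adjusted p = 0.00577 by edgeR). *Slc25a10*, the dicarboxylate carrier, had 28.0 ± 9.03 CPM in WT against 38.6 ± 8.93 CPM in OPA1 BKO mice and was not called (log2 fold change 0.46, adjusted p = 0.083 by edgeR).

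*Slc25a23*, a calcium-regulated carrier of ATP-Mg and phosphate that sets the adenine nucleotide pool of the matrix, had 147, 165 and 220 CPM in WT against 89.3, 110 and 126 CPM in OPA1 BKO mice. The groups did not overlap, and the log2 fold change was -0.65 (SE 0.09, adjusted p = 4.03e-05 by edgeR). Along with *Slc25a11* it was one of 2 members without overlap in the lower direction, 5% of those tested, where the background was 4.89%. The other carriers of that class, *Slc25a24* and *Slc25a25*, had log2 fold changes of 0.22 and 0.26 and were not called.

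The carriers that serve ATP synthesis directly were not called by edgeR. *Slc25a4* (ANT1, the ADP/ATP carrier of heart and muscle) had 334, 401 and 543 CPM in WT against 271, 340 and 713 CPM in OPA1 BKO mice. *Slc25a5* (ANT2) had 388, 423 and 473 CPM in WT against 359, 412 and 479 CPM in OPA1 BKO mice, but 49.4% of its transcript sequence, cut into words of 31 bases, is shared with other genes, mainly pseudogenes, so its counts are uncertain. Their log2 fold changes were -0.01 (SE 0.21) and -0.04 (SE 0.07). *Slc25a3*, the phosphate carrier, had 328, 389 and 451 CPM in WT against 388, 450 and 544 CPM in OPA1 BKO mice, and its log2 fold change of 0.22 (SE 0.09) missed the threshold (adjusted p = 0.0512 by edgeR) but passed it with DESeq2 (adjusted p = 0.0311).

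*Slc25a20*, the carnitine-acylcarnitine carrier of fatty acid oxidation, fell with a log2 fold change of -0.37 (SE 0.07, adjusted p = 0.000354 by edgeR), with 385, 466 and 513 CPM in WT against 313, 364 and 407 CPM in OPA1 BKO mice. Only the lowest WT mouse lay within the range of OPA1 BKO mice. The pyrimidine nucleotide carrier *Slc25a33* rose, with 29.4, 36.5 and 46.9 CPM in WT against 45.7, 58.4 and 68.0 CPM in OPA1 BKO mice (log2 fold change 0.65, SE 0.11, adjusted p = 0.000213 by edgeR). The groups met at the highest WT mouse. The related *Slc25a36* had 54.6 ± 5.58 and 61.0 ± 11.1 CPM and was not called.

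Of the 8 amino acid carriers tested, 2 fell (25%, near the background of 20.2%) and none was called higher by edgeR, by DESeq2 or at an unadjusted p under 0.05. The 2 were *Slc25a44*, a carrier of branched-chain amino acids known from brown fat, and *Slc25a38*, which imports glycine for heme synthesis, with log2 fold changes of -0.34 (adjusted p = 0.0175 by edgeR) and -0.23 (adjusted p = 0.0265 by edgeR). Both sat close to the threshold. Without 1 of 3 single mice (OPA1 BKO male replicate 2 or 4, or WT male replicate 1) *Slc25a38* was no longer called (log2 fold changes -0.22, -0.21 and -0.18 in that order), and without the 3 mice richest in muscle markers *Slc25a44* was not (log2 fold change -0.24, adjusted p = 0.102 by edgeR). The glutamate carriers *Slc25a22* and *Slc25a18*, the aspartate/glutamate carriers *Slc25a12* and *Slc25a13*, the ornithine carrier *Slc25a15* and the basic amino acid carrier *Slc25a29* were not called, with log2 fold changes from -0.43 to 0.93. *Slc25a13* and *Slc25a18* had at most 0.84 and 1.13 CPM in any mouse.

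*Slc25a34*, a carrier whose substrate is little studied, had the highest log2 fold change of the members tested, 1.83 (SE 0.42, adjusted p = 0.00228 by edgeR). Its levels were 3.28, 11.9 and 41.8 CPM in WT against 31.9, 58.6 and 84.7 CPM in OPA1 BKO mice. The 7 lowest mice were all WT, and only the highest WT mouse lay within the range of OPA1 BKO mice. *Slc25a48* and *Slc25a47*, further members of the class with recently assigned or unknown substrates, fell with log2 fold changes of -0.85 (SE 0.22, adjusted p = 0.00601 by edgeR) and -0.58 (SE 0.18, adjusted p = 0.0167 by edgeR). *Slc25a48* had 16.3, 28.3 and 55.3 CPM in WT against 9.15, 17.9 and 23.5 CPM in OPA1 BKO mice, and *Slc25a47*, best known from liver, had 2.39, 4.17 and 4.96 against 1.80, 2.87 and 3.41 CPM. Both pairs of groups overlapped. *Slc25a14*, a homologue of the uncoupling proteins, rose by a log2 fold change of 0.36 (SE 0.11, adjusted p = 0.0178 by edgeR) at a level of 2.30 ± 0.31 and 2.95 ± 0.39 CPM, and its call was lost without the 3 mice richest in muscle markers (adjusted p = 0.0557 by edgeR).

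When the sexes were examined apart, 7 members differed in females and 15 in males. In females 3 were higher (*Slc25a37*, *Slc25a39*, *Slc25a33*), where the background was 8.96%, and 4 were lower (*Slc25a23*, *Slc25a11*, *Slc25a20*, *Slc25a42*), where it was 9.03%. The same 7 were called in males. Without 1 mouse 4 to 7 were called in females, with 4 when OPA1 BKO female replicate 1 was left out. In males, with all mice, 7 were higher in all (background 17.9%), with *Slc25a34*, *Slc25a28*, *Slc25a24* and *Slc25a3* besides. The lower members in males were 8 (background 16.9%), with *Slc25a1*, *Slc25a48*, *Slc25a47* and *Slc25a38* besides. A call in males alone does not show that the sexes differ. With edgeR or DESeq2, 0 members passed the test of the interaction of genotype and sex, where with edgeR 0.115% of all genes did, and 3 members had an unadjusted p under 0.05 besides *Slc25a24*. *Slc25a24* had the smallest p of the interaction (adjusted p = 0.192 by edgeR), with log2 fold changes of -0.28 in females and 0.75 in males.

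Carriers with a like substrate were compared within each mouse by the log2 ratio of their TPM, which needs no scaling between mice. Of 11 pairs, 6 had a ratio that differed between genotypes after adjustment over the 11 pairs (exact permutation tests, two-sided). The share over pairs of other genes was not computed, so this count is not read as a result about carriers. Each of the 6 pairs holds a member called on its own, and 20.8% of all genes were called higher and 20.2% lower by edgeR. The ratio of *Slc25a39* to *Slc25a40* was 77.0 in WT against 155 in OPA1 BKO mice, a log2 difference of 1.01 without overlap (exact permutation, adjusted p = 0.00171). *Slc25a37* over *Slc25a28* rose from 0.15 to 0.22 (log2 difference 0.53, exact permutation, adjusted p = 0.00342), so that the mitoferrins rose unequally, and the ranges of the ratio overlapped. *Slc25a33* over *Slc25a36* rose from 1.37 to 2.04 (log2 difference 0.58, exact permutation, adjusted p = 0.00969).

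The other 3 ratios that differed hold a member that fell in the denominator. *Slc25a10* over *Slc25a11* rose from 0.13 to 0.26 (log2 difference 1.01, exact permutation, adjusted p = 0.00342). *Slc25a16* over *Slc25a42* rose from 0.13 to 0.23 (log2 difference 0.83, exact permutation, adjusted p = 0.00171), and *Slc25a24* over *Slc25a23* from 0.020 to 0.037 (log2 difference 0.86, exact permutation, adjusted p = 0.00969). *Slc25a25* over *Slc25a23* missed the threshold with TPM (exact permutation, adjusted p = 0.108) and passed it with estimated counts (exact permutation, adjusted p = 0.041).

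For *Slc25a4* over *Slc25a5* the log2 difference was -0.04, for *Slc25a12* over *Slc25a13* 0.01, for *Slc25a22* over *Slc25a18* -0.05 and for *Slc25a15* over *Slc25a29* 0.44, and none passed the exact permutation test (adjusted p = 0.99, 0.99, 0.99 and 0.137). The first ratio spread far more among OPA1 BKO mice (SD 0.69) than among WT mice (SD 0.25).

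**Figure D3:**
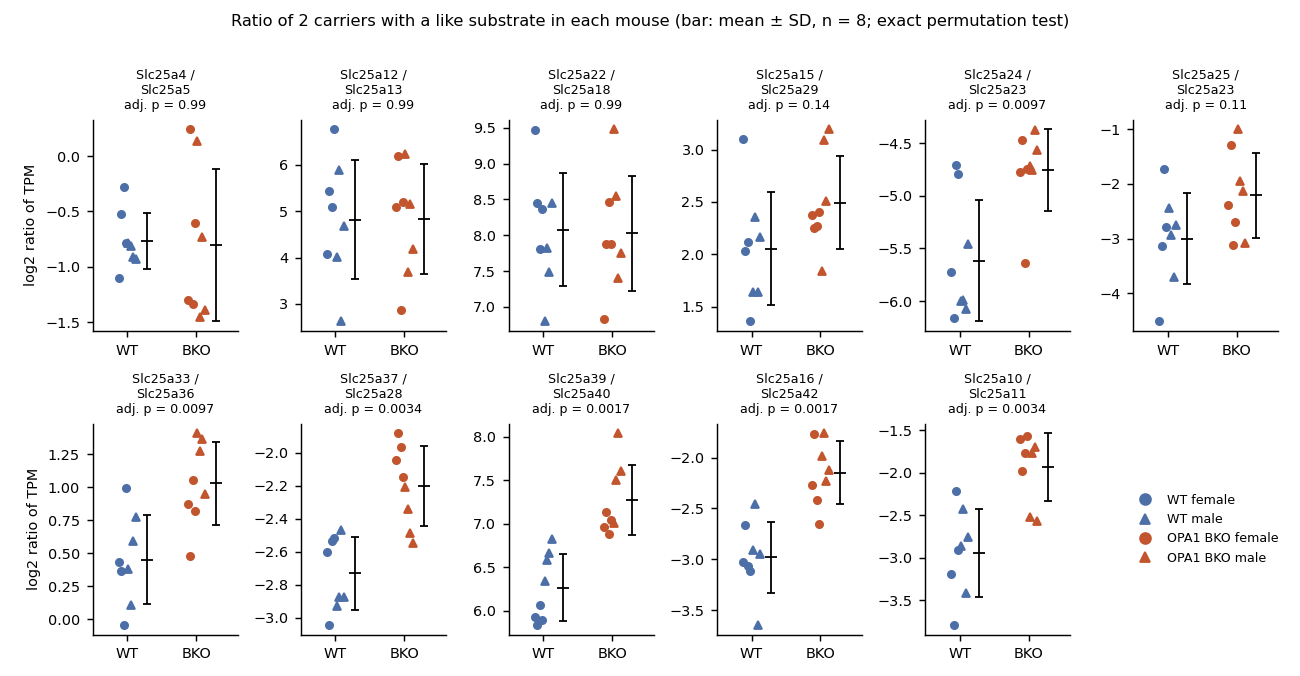
The log2 ratio of the TPM of 2 carriers (y axis) is plotted for each mouse in WT and OPA1 BKO (marked BKO) mice, with circles for females, triangles for males and a bar for the mean ± SD (n = 8). The ratio of *Slc25a39* to *Slc25a40* is the only one of the 11 without overlap between genotypes, and that of *Slc25a4* to *Slc25a5* is above 0 in 2 OPA1 BKO mice and below 0 in every other mouse.

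Kallisto divides reads among the transcripts of a gene, so the share of a transcript in its gene can be compared without scaling between mice. Over 9104 genes the leading transcript changed its share in 1.92% (exact permutation test, adjusted over all genes), and among the 26 members with several transcripts it did so in 1. When every transcript was tested, an alternative chosen after seeing the data, 1.30% of 30776 transcripts changed, and 2 of 81 transcripts of the members did.

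The larger of these changes was in *Slc25a39*. Its leading transcript *Slc25a39*-201 begins with an exon at chr11:102407390-102407544 (GRCm38, minus strand). A shorter transcript, *Slc25a39*-204, begins with another exon at chr11:102407778-102407946, which lies 233 bases upstream. Both join the same second exon, which holds the start codon, so both first exons are 5′ untranslated. *Slc25a39*-204 took 1.13% to 3.91% of the TPM of the gene in WT mice against 14.9% to 22.2% in OPA1 BKO mice. The groups did not overlap (means 2.21% ± 0.98 and 17.2% ± 2.37, exact permutation, adjusted p = 0.0295). Its estimated counts were 17.8 to 57.9 in WT against 468 to 1055 in OPA1 BKO mice.

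The leading transcript held 81.4% ± 7.84 of the gene in WT against 74.4% ± 2.55 in OPA1 BKO mice, which was not called (exact permutation, adjusted p = 0.214). Without WT male replicate 3, the lowest WT mouse at 64.9%, it was called (exact permutation, adjusted p = 0.0308). The TPM of the leading transcript was 135 to 184 in WT against 329 to 612 in OPA1 BKO mice. TPM is not corrected for the lower share of the mitochondrial genome. On log2(TPM + 0.5), limma called 13480 genes higher and 118 lower, so no direction is read from these ranges. The level of this transcript on the TMM scale was not computed. *Slc25a39*-204 has no annotated 3′ end, and its share is an estimate by Kallisto. Its first exon is not that of the leading transcript, but which reads tell it from all other transcripts of the gene was not examined. *Slc25a39*-204 is annotated at 642 bases against 1685 for the leading transcript, which raises its TPM for a given count.

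In *Slc25a36*, the leading transcript fell in share and a longer one rose. *Slc25a36*-201 has 3 exons and begins within the gene, at chr9:97084393-97084470 (minus strand), and *Slc25a36*-202 has 7 exons and begins at chr9:97110911-97111157. *Slc25a36*-201 took 61.3% to 82.8% of the TPM in WT against 56.4% to 63.5% in OPA1 BKO mice, which overlapped (means 69.7% ± 6.98 and 59.9% ± 2.33, exact permutation, adjusted p = 0.0485). *Slc25a36*-202 took 10.2% to 17.6% in WT against 21.7% to 31.7% in OPA1 BKO mice without overlap (means 14.9% ± 2.80 and 26.2% ± 3.78, exact permutation, adjusted p = 0.0295). The call of *Slc25a36*-201 was kept in only 2 of the 16 fits without 1 mouse.

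**Figure D4:**
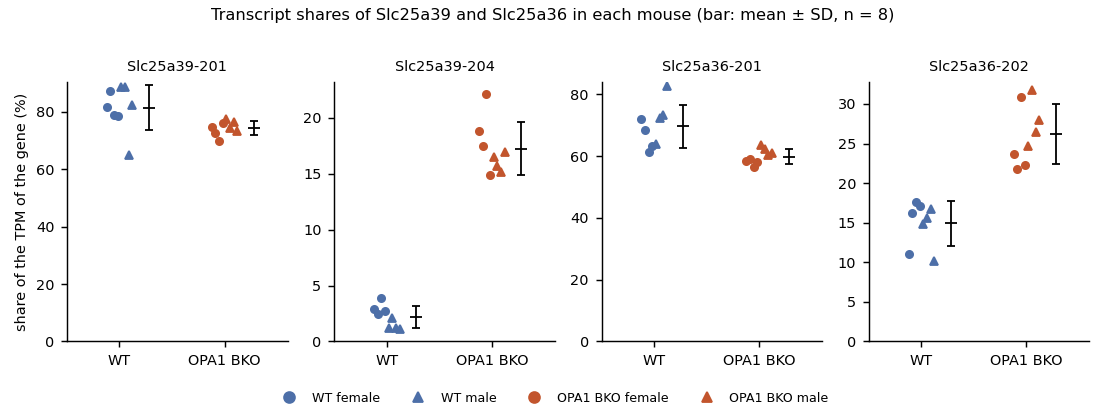
The share of the TPM of its gene (y axis, percent, from 0) is plotted for 2 transcripts of *Slc25a39* and 2 of *Slc25a36* in each mouse, with circles for females, triangles for males and a bar for the mean ± SD (n = 8). *Slc25a39*-204 lies under 4% in all WT and above 14% in all OPA1 BKO mice, and *Slc25a36*-202 also is apart between genotypes.

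The phosphate carrier *Slc25a3* exists in a pair of forms that differ by a mutually exclusive coding exon, of which 3A is the form of heart and skeletal muscle and 3B that of most other tissues. The exons are shown because they are the only part that tells these forms apart. Exon 3A lies at chr10:91122207-91122331 and exon 3B at chr10:91121922-91122043 (GRCm38, minus strand), and 77 of 125 aligned positions are identical. Capitals mark the bases that differ between them in the alignment, and the sequences were read from the GENCODE transcripts, 5′ to 3′.
Exon 3A: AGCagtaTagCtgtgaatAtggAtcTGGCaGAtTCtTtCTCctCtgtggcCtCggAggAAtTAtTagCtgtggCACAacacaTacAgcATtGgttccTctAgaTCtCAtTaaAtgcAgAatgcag
Exon 3B: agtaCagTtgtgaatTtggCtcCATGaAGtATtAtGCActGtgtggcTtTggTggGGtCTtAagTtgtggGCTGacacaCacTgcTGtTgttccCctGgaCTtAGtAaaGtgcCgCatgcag

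Transcripts with exon 3A took 17.7% to 40.9% of the TPM of both forms in WT against 11.7% to 53.1% in OPA1 BKO mice. The means were 30.8% ± 8.66 and 30.4% ± 16.2, and the difference was smaller than the spread between mice (two-sided exact permutation p = 0.948). Exon 3A rests on 1 transcript, *Slc25a3*-206. Mean TPM with 3A and 3B was 57.4 and 129.5 in WT against 136 and 283 in OPA1 BKO mice. The gene had 277 and 638 TPM, so part of it lay in transcripts counted for neither form. The highest shares, 53.1% and 51.6%, were those of OPA1 BKO female replicate 2 and OPA1 BKO male replicate 1.

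The same mice held the most RNA of skeletal muscle genes. The summed level of 14 muscle markers ranged from 81.4 to 9234 CPM in WT mice but from 49.8 to 22460 CPM in OPA1 BKO mice, and 0 of the 14 were called by edgeR, by DESeq2 or at an unadjusted p under 0.05. The highest were OPA1 BKO male replicate 1 (22460 CPM), OPA1 BKO female replicate 2 (17390 CPM) and WT female replicate 3 (9234 CPM). *Slc25a4* was highest in these 3 mice (713, 677 and 543 CPM), and so was *Slc25a12* (57.0, 56.9 and 30.5 CPM), an aspartate/glutamate carrier of muscle and brain. *Slc25a25* was also highest in them, with 46.7, 34.0 and 37.3 CPM. *Slc25a34* did not follow this order, with 62.9, 82.2 and 8.87 CPM in them.

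**Figure D5:**
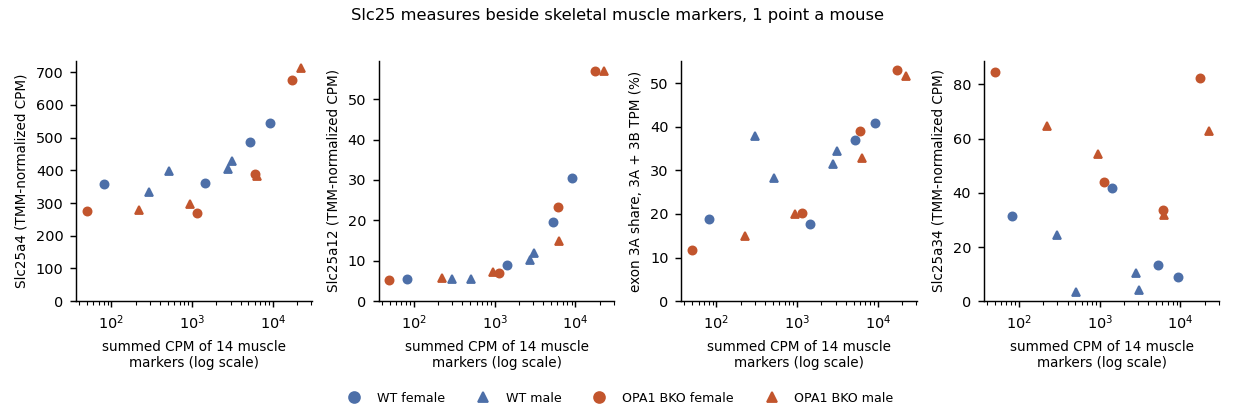
The level of *Slc25a4*, *Slc25a12* and *Slc25a34* (TMM-normalised CPM, from 0) and the share of exon 3A in *Slc25a3* (percent of the TPM of transcripts with 3A or 3B) are plotted against the summed CPM of 14 skeletal muscle markers (x axis, log scale), 1 point a mouse. The 2 OPA1 BKO mice at the right of each panel hold the highest values of *Slc25a4*, *Slc25a12* and exon 3A.

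With the muscle marker level as a covariate, chosen after seeing the data, the same 6 members were higher and the same 9 lower. Without these 3 mice, also chosen after seeing the data, 6 were higher and 10 lower. *Slc25a14* and *Slc25a44* then lost their calls, and *Slc25a10* (log2 fold change 0.62, adjusted p = 0.0472 by edgeR), *Slc25a29* (log2 fold change -0.66, adjusted p = 0.0469 by edgeR) and *Slc25a4* (log2 fold change -0.33, adjusted p = 0.0464 by edgeR) gained one. The log2 fold change of *Slc25a12* was 0.93 with all mice and 0.12 without these 3.

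Marker lists of other cell types moved as well, and their part in the values above was not tested. Counts are of edgeR calls, where the background was 20.8% higher and 20.2% lower. Macrophage markers summed to 112 to 172 CPM in WT against 148 to 573 CPM in OPA1 BKO mice, with 8 of 10 higher. Of the fibroblast and preadipocyte markers 5 of 8 were higher, with sums of 584 to 948 CPM in WT against 650 to 1338 CPM in OPA1 BKO mice. Of the endothelial markers 4 of 8 were lower, with sums of 972 to 1378 CPM and 801 to 1054 CPM, and of the lymphocyte markers 3 of 10 were lower, with sums of 7.47 to 15.4 CPM and 4.81 to 9.47 CPM. Of 13 brown adipocyte markers 3 were higher and 4 lower (6 lower by DESeq2), with sums of 8791 to 13430 CPM in WT against 5425 to 9984 CPM in OPA1 BKO mice, and none of the 13 was at 0 counts in all mice.

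Relatives of the family under other symbols moved in both directions. *Ucp2*, the uncoupling protein homologue of many tissues, rose from 55.3 ± 9.93 to 98.3 ± 26.3 CPM (log2 fold change 0.80, adjusted p = 6.80e-05 by edgeR). *Ucp3*, its homologue of muscle and brown fat, fell from 185 ± 44.8 to 119 ± 19.1 CPM (log2 fold change -0.62, adjusted p = 0.00184 by edgeR). *Ucp1* had 4758 ± 1319 CPM in WT against 3436 ± 1075 CPM in OPA1 BKO mice (log2 fold change -0.46), which missed the threshold with edgeR (adjusted p = 0.0738) and was called lower by DESeq2. The outer membrane relatives *Mtch1* and *Mtch2* fell by 0.20 and 0.24 on the log2 scale.

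Among 10 components of the import route of carriers, 6 (60%) were lower, where the background was 20.2%, and none was called higher by edgeR, by DESeq2 or at an unadjusted p under 0.05. *Timm22*, the channel of the TIM22 complex, fell from 33.6 ± 4.51 CPM to a mean of 23.7 CPM (log2 fold change -0.50, adjusted p = 5.92e-05 by edgeR). *Timm29*, a further subunit, and *Timm10b*, a small chaperone of the intermembrane space, fell by 0.54 and 0.55 on the log2 scale, and *Timm9*, *Tomm22* and *Tomm20* fell by 0.28, 0.30 and 0.19. *Agk*, *Timm10*, *Tomm40* and *Tomm70a* were not called.

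Of 18 mitochondrial transporters outside the family, 5 (27.8%) were higher and 7 (38.9%) lower by edgeR, where the background was 20.8% and 20.2%. The calcium uniporter *Mcu* rose by a log2 fold change of 0.68 (adjusted p = 2.02e-06 by edgeR) and its regulator *Micu2* by 0.42. *Ghitm*, an inner membrane protein linked to calcium and proton exchange, rose by 0.77, *Vdac3* by 0.49 and *Sfxn1* by 0.30. The transporters of the ABCB group *Abcb6*, *Abcb8* and *Abcb10* fell by 0.52, 0.32 and 0.52 on the log2 scale. The pyruvate carrier subunit *Mpc2* fell from 472 ± 94.5 to 298 ± 19.6 CPM (log2 fold change -0.65, adjusted p = 4.36e-05 by edgeR), while *Mpc1* was not called. *Sfxn4*, *Sfxn5* and *Vdac2* fell by 0.62, 0.40 and 0.16 on the log2 scale. *Letm1*, *Slc8b1*, *Sfxn2*, *Sfxn3* and *Vdac1* were not called.

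Of 12 enzymes that work with these carriers in the shuttles, 3 (25%) were higher and 5 (41.7%) lower by edgeR, against the same background of 20.8% and 20.2%. The aspartate aminotransferases of the malate-aspartate shuttle rose, *Got1* from 23.1 ± 10.3 to 93.2 ± 39.9 CPM (log2 fold change 1.97, adjusted p = 9.36e-05 by edgeR) and *Got2* by a log2 fold change of 1.00. The malate dehydrogenases of the same shuttle, *Mdh1* and *Mdh2*, fell by 0.37 and 0.48 on the log2 scale, as did its carrier *Slc25a11* above. Of the carnitine enzymes beside *Slc25a20*, *Cpt1a* rose by a log2 fold change of 0.86, and *Cpt1b* and *Cpt2* fell by 0.33 and 0.26. *Gpd1* of the glycerol phosphate shuttle fell by 0.63, while *Gpd2* of the same shuttle was not called (log2 fold change 0.05, adjusted p = 0.826 by edgeR). *Acly*, *Cs* and *Ogdh* were not called either.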

How the data were processed

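RNA from BAT of 16 mice in 4 groups of sex and genotype was quantified by the authors with Kallisto 0.45.0 (mm10 in the submitters' processing notes). The deposited tables list for each transcript an estimated count, which is not normalised between mice, and a TPM, which the authors' tool scales to a common total after division by effective length. The authors' alignment and counting on genes were not analysed here, and whether strand was used is not given in the sources used here.

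Of 135308 transcripts, 133284 were joined to genes by GENCODE M21 identifiers, and the rest held 0.483% to 0.73% of the counts of a mouse. Estimated counts were summed per gene, rounded, filtered by filterByExpr (4 groups, minimum count 10, minimum total 15), TMM-normalised and compared by the quasi-likelihood test of edgeR 4.0.16 (R 4.3.3), with sex as a covariate. The SE given was not returned by edgeR but derived, as the size of the log2 fold change divided by the square root of the F statistic. The sexes and their interaction came from a model of 4 group means. Adjustment was that of Benjamini and Hochberg over all genes in a fit. Sums, ratios and transcript shares were compared by exact permutation tests, and leading transcripts needed a gene mean of 1 TPM and a share under 95%. Scripts were tested on simulated data. Counting limits cover counting error only, since PCR copies are not independent molecules.

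One Slc25a gene and 2 other transporters are not reported here. The members, substrate classes, pairs and lists were chosen with earlier results of these data known. Members named are those called with a log2 fold change of at least 0.5 in size, those without overlap, the 5 highest in WT, those of the pairs, those called in or with the smallest p of the interaction, and those not tested. Members called below 0.5 were added after their values were seen. The labels name no litters, pairs or batches. Alternatives were DESeq2 1.42.0, other scalings and filters, limma 3.58.1 on log2(TPM + 0.5) or log2(TPM + 0.1), counts scaled from TPM, protein-coding genes alone, no term for sex, and each mouse left out in turn.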

Additional observations from a re-analysis of the deposited data

Results flagged for a closer look

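A mouse was marked where its gap to the nearest of the 4 mice of its group, divided by the range of the group, exceeded Dixon's 95% critical value for 4 samples. This held in 10 of 160 groups (6.25%) of the 40 members tested, where chance marks about 1 in 20, and no explanation was weighed. Highest of their group by this rule were OPA1 BKO female replicate 1 in *Slc25a1* (444 CPM, others 334 to 343) and in *Slc25a26* (26.9 CPM, others 23.4 to 23.8). OPA1 BKO male replicate 1 was highest in *Slc25a13* (0.724 CPM, others 0.477 to 0.489), OPA1 BKO female replicate 2 in *Slc25a27* (5.23 CPM, others 3.70 to 3.92), and WT male replicate 4 in *Slc25a35* (194 CPM, others 143 to 147). Lowest of its group was OPA1 BKO female replicate 4 in *Slc25a36* (54.4 CPM, others 70.3 to 71.0). Lowest among WT mice were female replicate 3 in *Slc25a20* (385 CPM, others 450 to 462) and in *Slc25a39* (258 CPM, others 290 to 294), male replicate 2 in *Slc25a20* (471 CPM, others 506 to 513) and male replicate 3 in *Slc25a47* (4.04 CPM, others 4.81 to 4.96).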

How the results depend on the processing

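With all genes, 6412 were called, and without 1 mouse 5876 to 6482. Library size alone called 11242 genes (10869 higher, 373 lower), limma on log2(TPM + 0.5) 13598 and on log2(TPM + 0.1) 13580, and these settings called 31, 36 and 35 members, all higher, against 15 with TMM. By construction they do not correct for the lower share of the mitochondrial genome. Library size alone called 9058 genes in females and 9903 in males, against 2812 and 5450. The interaction, with 18 genes, gave 354 with DESeq2, 203 with library size alone and 2 to 62 without 1 mouse, with 0 members in each. Relative to the moved median, *Slc25a4* and *Slc25a5* were above 0 with limma on log2(TPM + 0.5), at 0.0599 and 0.0997.

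Without 1 mouse 14 to 16 members were called, and 14 of the 15, all but *Slc25a38*, were kept in all 16 such fits. Calls were gained by *Slc25a3* (log2 fold change 0.24 to 0.25) without OPA1 BKO female replicate 3 or 4, WT female replicate 1 or WT male replicate 2, by *Slc25a10* (0.56 and 0.57) without OPA1 BKO male replicate 4 or WT female replicate 3, by *Slc25a29* (-0.58) without OPA1 BKO male replicate 1 and by *Slc25a36* (0.23) without OPA1 BKO male replicate 3. RLE factors, leaving out the mitochondrial genome, protein-coding genes alone and no term for sex called the same 15. DESeq2 and a mean TPM of at least 1 kept these and added *Slc25a3*. Counts scaled from TPM added *Slc25a3* and lost *Slc25a14* and *Slc25a38*, and without the low-count filter *Slc25a38* and *Slc25a44* were lost. The summed TPM ratio of the family was 1.84 to 1.93 without 1 mouse but 0.93 on CPM. On CPM the class ratios were 0.98 for ADP/ATP exchange, 0.71 for ATP-Mg/phosphate exchange, 0.64 for di- and tricarboxylates, 0.95 for amino acids and 0.77 for acylcarnitine, all above 1 on TPM, and without the mitochondrial genome they were 0.99 for ATP-Mg/phosphate exchange and 0.90 for di- and tricarboxylates. Of the 11 pairs, 0 passed in females or males alone by exact permutation, where 4 mice against 4 cannot go below p = 0.0286, and 6 to 7 passed without 1 mouse. Transcript shares were called in 175 genes, in 400 transcripts when each was tested, and in 59 to 455 genes without 1 mouse (455 without WT female replicate 4).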
